A study of Mus musculus with 4 samples.

Results

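Cortical glutamatergic lineage transcription factors were followed across the tissue spots of wild-type mouse heads at embryonic day 14.5 (E14.5) and 15.5 (E15.5). The set was chosen by gene symbol and holds Emx1, Emx2, Neurog2, Eomes, Neurod1, Neurod2, Neurod6, Tbr1 and Bcl11b. All 9 were found among the 19465 genes of the count tables, and all 9 passed the filter on low counts in each comparison under its main settings, though not under every alternative. The heads came from wild-type C57BL/6J mice with no treatment, and the labels give age as the only difference between the stages. Sections of fixed, paraffin-embedded heads were laid on Visium capture areas, on which each barcoded spot collects RNA from a small patch that can hold several cells. Each stage had 2 areas, of which the one labelled replicate 1 held 1 section and the one labelled replicate 2,3,4 held 3 sections. The 3 sections of a shared area are called A, B and C here, in the order of the mean array column of their spots. The study describes its spatial experiments as biologically replicated, but the labels do not tie sections to embryos, so each area was taken as 1 sample. The p-values between stages rest on the spread between areas, and those between classes on the spread of the class difference over areas. In both, edgeR draws the spread of a gene towards that of all genes, so small p-values do not rest on the areas of that gene alone.

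In the developing cortex, radial progenitors line the ventricle, give rise to intermediate progenitors in the subventricular zone, and these give rise to glutamatergic neurons that migrate outwards to the cortical plate. Emx1 and Emx2 are homeobox genes that pattern the dorsal telencephalon and its progenitors. Neurog2 is the proneural factor that commits cortical progenitors to the glutamatergic fate, Eomes (also called Tbr2) marks intermediate progenitors, and Neurod1, Neurod2 and Neurod6 are basic helix-loop-helix factors of late progenitors and young neurons. Tbr1 and Bcl11b (also called Ctip2) are factors of deep-layer cortical neurons, and Bcl11b is also known from striatal neurons, T cells and skin.

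All 9 genes are protein-coding in the GENCODE M21 annotation of GRCm38, the assembly behind the name mm10 that the submitters' processing notes give. Neurog2 lies on chromosome 3 (127633135 to 127635631, plus strand), Eomes on chromosome 9 (118478212 to 118486132, plus strand) and Bcl11b on chromosome 12 (107910403 to 108003602, minus strand). Emx1 and Neurod6 share chromosome 6, at 85187438 to 85204462 on the plus strand and 55677822 to 55681263 on the minus strand. Tbr1 and Neurod1 share chromosome 2, at 61802930 to 61814114 on the plus strand and 79452521 to 79456751 on the minus strand. Neurod2 lies on chromosome 11 (98325415 to 98329648, minus strand) and Emx2 on chromosome 19 (59458372 to 59465357, plus strand). The exons of Emx2 share 264 bases with the antisense gene Emx2os, those of Eomes share 118 bases with the antisense gene Gm33460, and those of Neurod1 share 201 bases with Cerkl on its own strand and 154 bases with Gm26755 on the other. Of these 4 overlapping genes only Cerkl is in the count tables, and whether the counting used strand is not given in the sources used here.

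The bases before the start sites of 3 members are shown because Neurod2 and Neurod6 were the pair whose levels were most alike over spots, and because Neurod2 and Tbr1 were the only members with a match to one of the motifs searched. Each sequence is the first 250 bases of the RefSeq promoter window (GRCm38.p6), written 5′ to 3′ on the strand of the gene, with motif matches in capitals. The windows are chr11:98329646-98329895 (minus strand) for Neurod2, chr6:55681264-55681513 (minus strand) for Neurod6 and chr2:61804203-61804452 (plus strand) for Tbr1, the last of which lies at a start inside the annotated gene.
Neurod2: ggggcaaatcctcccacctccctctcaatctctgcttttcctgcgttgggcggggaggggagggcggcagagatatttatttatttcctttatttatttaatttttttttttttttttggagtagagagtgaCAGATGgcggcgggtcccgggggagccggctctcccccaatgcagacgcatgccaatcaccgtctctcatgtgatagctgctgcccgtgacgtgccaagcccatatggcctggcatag
Neurod6: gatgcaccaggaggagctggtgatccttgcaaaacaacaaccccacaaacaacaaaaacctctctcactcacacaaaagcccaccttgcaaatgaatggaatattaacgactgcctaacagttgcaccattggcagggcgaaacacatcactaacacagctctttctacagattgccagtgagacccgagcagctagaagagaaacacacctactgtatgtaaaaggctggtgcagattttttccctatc
Tbr1: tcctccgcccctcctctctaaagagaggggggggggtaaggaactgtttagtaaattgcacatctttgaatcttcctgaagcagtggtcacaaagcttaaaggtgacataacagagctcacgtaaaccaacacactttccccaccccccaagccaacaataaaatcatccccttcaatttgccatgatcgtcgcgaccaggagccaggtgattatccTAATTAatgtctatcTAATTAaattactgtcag
The motifs were the E-box CAGATG, which reads as CATCTG on the other strand, the E-box CAGCTG and the homeodomain core TAATTA, the last 2 of which read the same on both strands. The Neurod2 window held 1 CAGATG and the Tbr1 window held 2 copies of TAATTA, which do not overlap. The other 7 members had no match to any of the 3 motifs. Over 32851 windows of the same length, 14.4% held CAGATG, 13.0% held CAGCTG and 4.84% held TAATTA, so these matches are a description of the letters and are no test of binding.

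The 4 areas held 6357 spots over tissue and between 15438992 and 109127953 UMIs (unique molecular identifiers, each a captured molecule) per area. E14.5 replicate 1 was the shallowest, with a median of 6752 UMIs per spot against 45058.5 to 64051 in the other areas. Within E14.5 replicate 2,3,4, section A had a median of 10037.5 UMIs, against 65616 and 59411 in sections B and C. Levels are given as CPM, the UMIs of a gene per 1000000 UMIs of the spots named, and are compared only for 1 gene between spots, since counts are not corrected for gene length. Spots were assigned to tissue classes by marker lists that hold none of the 9 genes, and neural spots are those whose highest list was that of neurons (Stmn2, Tubb3, Dcx and others) or of neural progenitors (Hes5, Fabp7, Sox2 and others). There were 224, 283, 211 and 194 neural spots in E14.5 replicate 1, E14.5 replicate 2,3,4, E15.5 replicate 1 and E15.5 replicate 2,3,4, which is 20.3%, 12.3%, 21.3% and 9.94% of their tissue spots. The spots of a class were chosen by other genes of the same libraries, so the tests between classes say how the 9 genes vary with those genes. In E14.5 replicate 2,3,4 the choroid plexus list, whose median levels there were 1687 CPM for Ttr and 0 CPM for Kl, took 411 spots, of which 289 were neural without that list. The comparisons within and against neural spots were therefore repeated without it, an alternative chosen after seeing the data.

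Over whole areas most genes of the lineage were higher in the replicate 1 area of each stage. By the main lists those areas had the larger share of neural spots. Without the choroid plexus list E14.5 replicate 2,3,4 had 24.8% neural spots against 20.3% in E14.5 replicate 1. The order of these shares at E14.5 thus changed with that list. The levels are pooled over spots and so weigh each spot by its UMIs. By the main lists, neural spots held 7354262 of 15438992 UMIs in E14.5 replicate 1. They held 10172239 of 109127953 in E14.5 replicate 2,3,4. The part of the neural spots in these levels was not tested. Neurod2, a factor of young glutamatergic neurons, stood at 536 and 142 CPM in the E14.5 areas and at 353 and 36.6 CPM in the E15.5 areas, in each case with replicate 1 the higher. Tbr1 stood at 47.5 and 17.1 CPM at E14.5 and at 39.6 and 7.88 CPM at E15.5, in the same order. Emx2 had no such order, with 10.9 and 6.85 CPM at E14.5 and 8.86 and 10.5 CPM at E15.5. At E15.5 section B had 2 neural spots of 527 spots, and there the levels were 1.16 CPM for Neurod2, 1.19 CPM for Eomes and 0.408 CPM for Tbr1, against 9.28 CPM for Neurod1, 6.76 CPM for Emx2 and 11.5 CPM for Bcl11b. The maps of 4 members over the sections show where these levels came from.

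**Figure D1:**
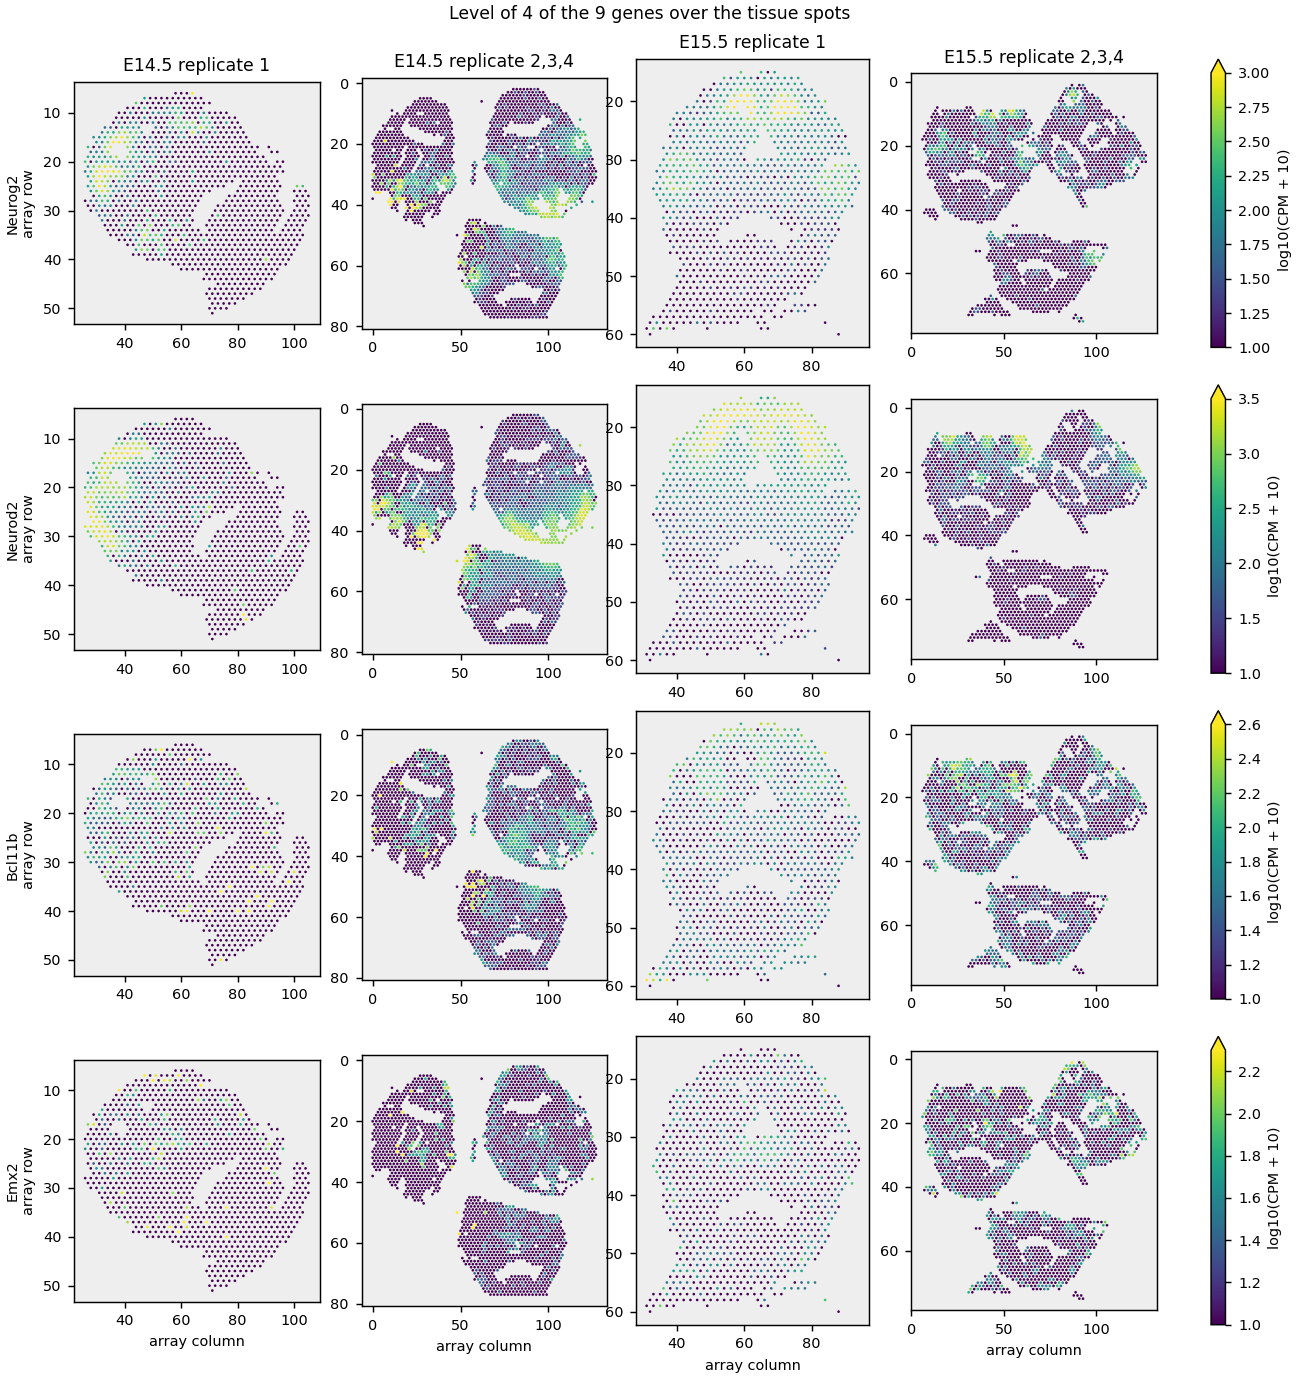
Level of Neurog2, Neurod2, Bcl11b and Emx2 (rows) in each tissue spot of the 4 capture areas (columns), drawn at the spot's array row and column and coloured by log10(CPM + 10), with a colour range set for each gene. Neurod2 is high along one side of most sections, where the brain spots lie, and near 0 in section B of E15.5 replicate 2,3,4, while Bcl11b and Emx2 are spread more evenly over the sections.

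The neural spots were compared with all other tissue spots to see which of the 9 genes follow the brain in a whole head. Of the 9 genes, 8 were higher in neural spots by edgeR's quasi-likelihood test at an adjusted p under 0.1, in a comparison in which 74.7% of 13603 genes were called in either direction and 36% were called higher. Emx2 was the exception, with a log2 difference of -0.02 (SE 0.23, adjusted p = 0.945). The neuronal factors differed most, by log2 fold changes of 3.38 for Neurod2 (SE 0.38), 3.28 for Neurod6 (SE 0.37) and 3.25 for Tbr1 (SE 0.34). Neurod1, at 0.93 (SE 0.20), and Neurog2, at 1.56 (SE 0.29), differed least of the 8. Without the choroid plexus list the same 8 were called, at 1.04 (SE 0.14) for Neurod1 to 3.68 (SE 0.26) for Neurod2. The share of a gene's UMIs that lay in neural spots was also taken within each area. Of all genes together, neural spots held 7354262 of 15438992 UMIs in E14.5 replicate 1 and 10172239 of 109127953 in E14.5 replicate 2,3,4. They held 14273876 of 67344393 in E15.5 replicate 1 and 5621909 of 89128289 in E15.5 replicate 2,3,4. The shares of a gene are to be read beside these values and are not comparable between areas. Neurod2 had 86.0%, 32.8%, 79.0% and 57.3% of its UMIs there in E14.5 replicate 1, E14.5 replicate 2,3,4, E15.5 replicate 1 and E15.5 replicate 2,3,4, while Neurod1 had 58.4%, 10.5%, 38.1% and 14.3% and Emx2 33.3%, 9.63%, 18.4% and 8.74%. The low shares of E14.5 replicate 2,3,4 move with the choroid plexus list: their part in the shares is given by the values without it, which were 77.9% for Neurod2, 34.1% for Neurod1 and 27.8% for Emx2. With neural spots set by a stricter list score of over 1.5, Neurod1 and Bcl11b were no longer called, with log2 values of -0.06 and 0.24.

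Within the brain, spots were divided by lists for the dorsal telencephalon (Fezf2, Pax6 and others), the ventral forebrain (Dlx1, Gad1, Nkx2-1 and others) and the diencephalon, since the glutamatergic lineage is known from the dorsal side. Spots of the diencephalon list held under 100 CPM of the list's genes in total and were not compared. The 83, 94, 109 and 36 dorsal spots were compared with the 61, 89, 49 and 103 ventral spots of the same areas. Of the 9 genes, 8 were higher in dorsal spots, in a comparison in which 11.7% of 11358 genes were called higher, and Bcl11b did not pass the test. The plot of levels by tissue class gives each area's value.

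**Figure D2:**
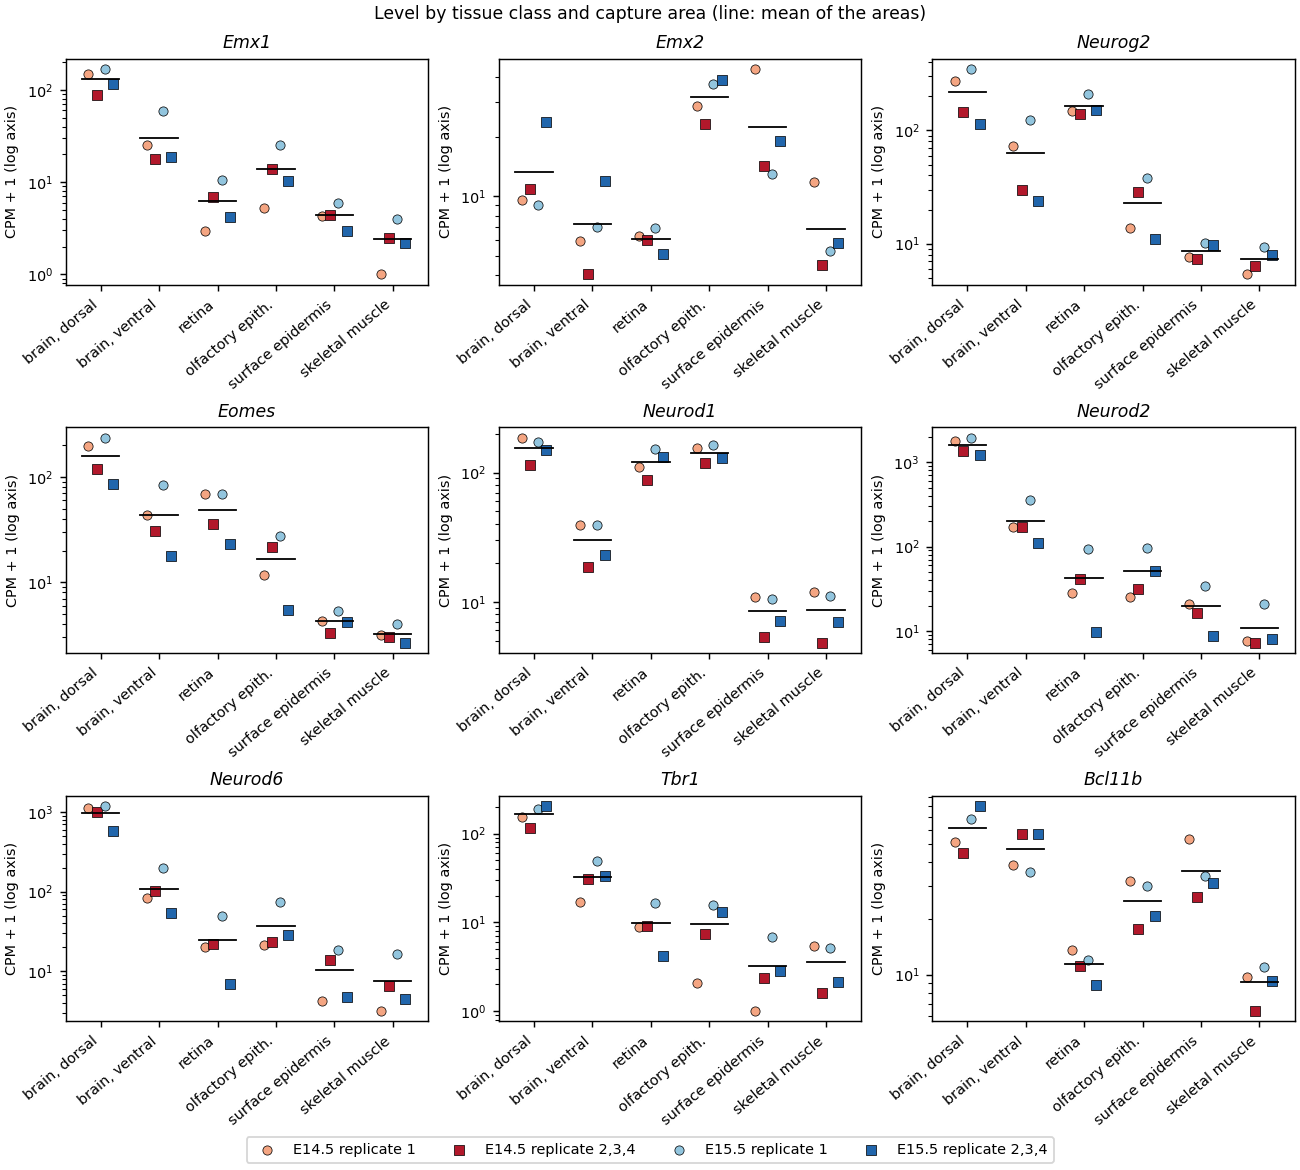
Level of each gene as CPM + 1 on a log axis in 6 tissue classes, with a point for each capture area (colour and shape give the area) and a line at the mean of the areas. Dorsal points of Neurod2, Neurod6 and Tbr1 lie above all others, Neurog2 and Neurod1 are also high in retina spots, and Emx2 and Bcl11b are also high in surface epidermis.

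Among the progenitor genes, Emx1 stood at 149 and 86.0 CPM in dorsal spots of the 2 E14.5 areas and 166 and 114 CPM in those of E15.5, against 24.1 and 16.7 CPM and 57.7 and 17.9 CPM in ventral spots. The log2 fold change was 2.16 (SE 0.17, adjusted p = 2.46e-06), and the groups did not overlap. Emx2 stood at 8.58 and 9.84 CPM and 8.02 and 22.9 CPM in dorsal spots against 4.94 and 3.03 CPM and 6.03 and 11.0 CPM in ventral spots. Its log2 fold change was 0.93 (SE 0.26, adjusted p = 0.0270), higher in 4 of 4 areas, on 19 to 66 UMIs per area in dorsal spots. Neurog2, the proneural factor, stood at 272 and 143 CPM and 345 and 113 CPM against 72.4 and 28.8 CPM and 123 and 22.6 CPM. It rose by 1.91 on the log2 scale (SE 0.13, adjusted p = 6.68e-07), again in 4 of 4 areas, although the ventral spots of E15.5 replicate 1 stood above the dorsal spots of E15.5 replicate 2,3,4. Without E14.5 replicate 2,3,4 the call on Emx2 was lost (log2 fold change 0.72, adjusted p = 0.109).

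Of the genes of intermediate progenitors and newborn neurons, Eomes stood at 194 and 117 CPM and 236 and 84.2 CPM in dorsal spots and at 42.8 and 29.4 CPM and 82.8 and 16.6 CPM in ventral spots. Its log2 fold change was 1.91 (SE 0.13, adjusted p = 5.91e-07). Neurod1 stood at 185 and 113 CPM and 171 and 148 CPM against 38.4 and 17.6 CPM and 38.1 and 22.0 CPM, so that the lowest dorsal value was above the highest ventral one. Its log2 fold change was 2.42 (SE 0.12, adjusted p = 4.64e-08).

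Of the 9 genes, the neuronal factors Neurod6 and Neurod2 had the largest fold changes. Neurod6 stood at 1106 and 1007 CPM and 1189 and 570.1 CPM in dorsal spots against 82.8 and 101 CPM and 194 and 52.4 CPM in ventral spots, a log2 fold change of 3.23 (SE 0.15, adjusted p = 4.26e-08). Neurod2 stood at 1768 and 1365 CPM and 1951 and 1215 CPM against 169 and 169.9 CPM and 356 and 109 CPM, with a log2 fold change of 3.05 (SE 0.15, adjusted p = 4.64e-08). Tbr1 stood at 153 and 114 CPM and 186 and 204 CPM against 15.9 and 29.4 CPM and 48.5 and 32.0 CPM, with a log2 fold change of 2.33 (SE 0.17, adjusted p = 9.32e-07). Bcl11b differed from these, with 50.6 and 43.7 CPM and 67.4 and 79.4 CPM in dorsal spots and 37.9 and 55.7 CPM and 34.6 and 55.9 CPM in ventral spots. The Bcl11b groups overlapped, and the log2 difference of 0.39 (SE 0.17) did not pass the test (adjusted p = 0.153). It did pass without E14.5 replicate 2,3,4 (0.66, adjusted p = 0.00590) and without the choroid plexus list (0.55, adjusted p = 0.00673).

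The dorsal spots were then ordered within each area by the value of the neuron list minus that of the progenitor list. Each value was the log2 of the summed level of the list's genes, before standardising over tissue spots. Spots rich in progenitor genes thus stand at one end and spots rich in neuron genes at the other. The dorsal spots were divided into 3 equal parts, and the part with the highest difference was compared with the part with the lowest. Of the 9 genes, 5 were lower in neuron-rich spots (Eomes, Neurog2, Emx1, Emx2 and Neurod1) and 3 were higher (Tbr1, Bcl11b and Neurod2), where 45.5% of 9230 genes were called, 23.3% lower and 22.2% higher. Neurod6 did not pass. By DESeq2, 3 members were higher and 3 lower, where 2718 of 9230 genes were called. Without the area term, 1 was higher and 3 were lower, where 2400 of 9230 genes were called. The plot of levels by part gives the value in each area.

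**Figure D3:**
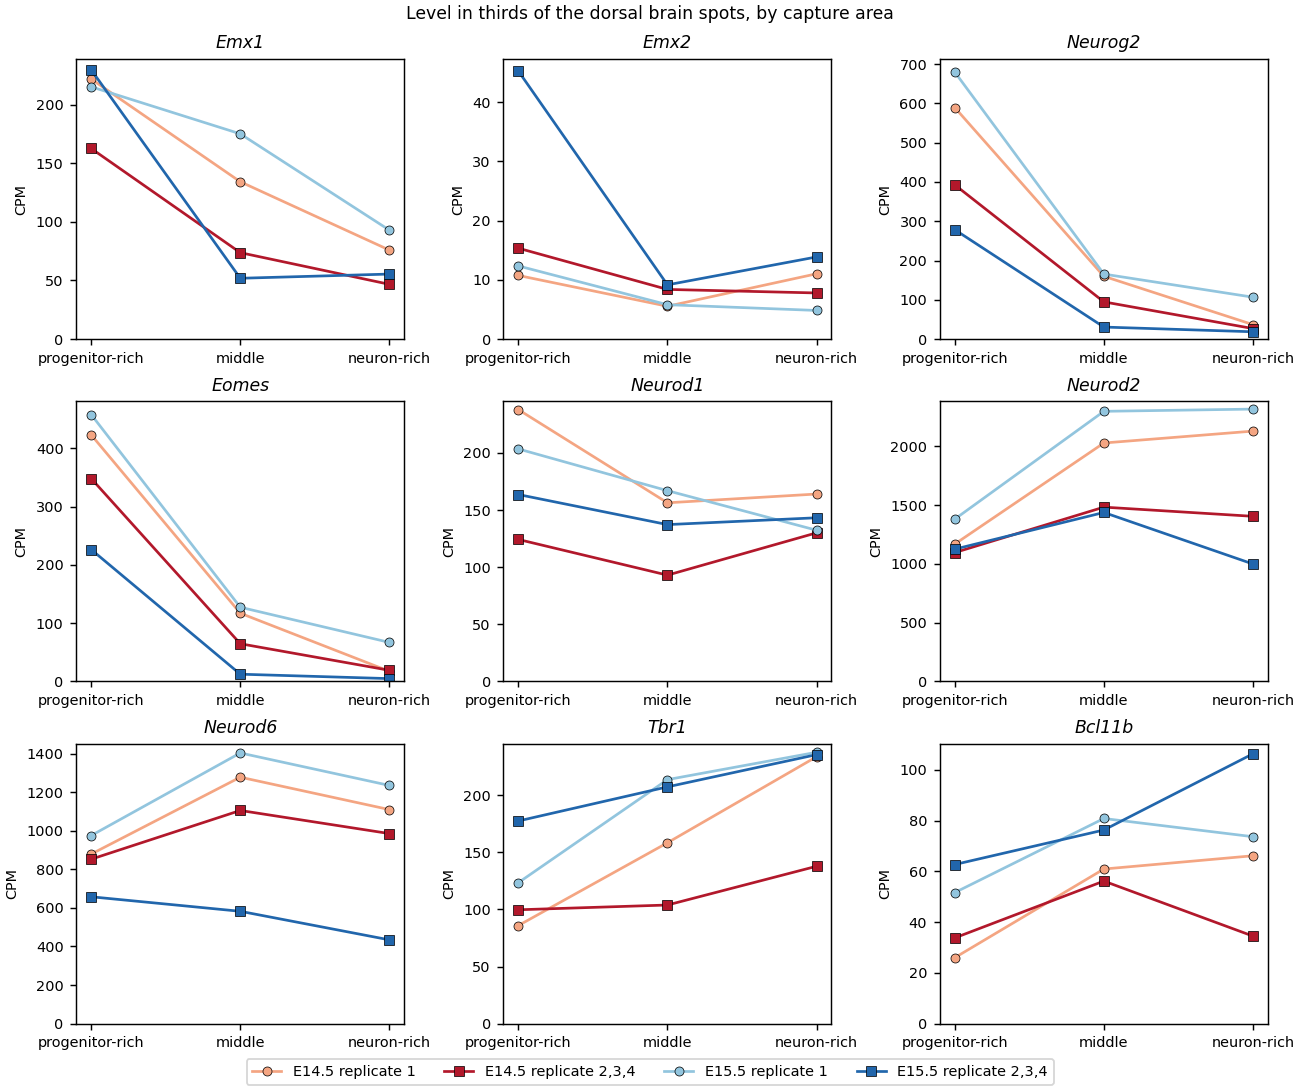
CPM of each gene in the progenitor-rich, middle and neuron-rich part of the dorsal brain spots, with a line for each capture area and axes that start at 0. Neurog2, Eomes and Emx1 are highest in the progenitor-rich part in all 4 areas and Tbr1 is highest in the neuron-rich part in all 4, while Neurod2, Neurod6 and Bcl11b vary between areas.

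Neurog2 stood at 590 and 393 CPM (E14.5) and 680.0 and 278 CPM (E15.5) in progenitor-rich spots, and at 36.7 and 26.7 CPM and 107 and 18.5 CPM in neuron-rich spots. It fell by 3.30 on the log2 scale from the first to the last (SE 0.19, adjusted p = 3.05e-10). Eomes stood at 423 and 348 CPM and 458 and 226 CPM against 17.1 and 18.9 CPM and 66.8 and 4.62 CPM, with a log2 fold change of -3.51 (SE 0.22, adjusted p = 1.38e-09). Both sets of values are well apart, and in both genes the neuron-rich spots of E15.5 replicate 1 were the highest of their kind. Emx1 went from 222 and 163 CPM and 215 and 229.8 CPM to 75.9 and 46.7 CPM and 92.9 and 55.5 CPM, with a log2 fold change of -1.49 (SE 0.14, adjusted p = 1.13e-07). Emx2 stood at 10.7 and 15.3 CPM and 12.3 and 45.3 CPM in progenitor-rich spots and at 11.0 and 7.78 CPM and 4.83 and 13.9 CPM in neuron-rich spots. Its log2 fold change of -0.98 (SE 0.34, adjusted p = 0.0303) rests on 3 to 39 UMIs per area and part, was in that direction in 3 of 4 areas, and was no longer called without E15.5 replicate 1 (-0.71, adjusted p = 0.299).

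Neurod1 lay between the progenitor and the neuronal genes. It stood at 238 and 124 CPM and 204 and 164 CPM in progenitor-rich spots, against 164 and 130.1 CPM and 132 and 143 CPM in neuron-rich spots, lower in 3 of 4 areas. The log2 fold change of -0.38 (SE 0.13, adjusted p = 0.0290) was lost without E14.5 replicate 1 (-0.28, adjusted p = 0.253) and without E15.5 replicate 1 (-0.21, adjusted p = 0.466). Without the choroid plexus list it was -0.53 (adjusted p = 0.000784), and both Neurod1 and Emx2 (-0.86, adjusted p = 0.0290) were then lower in neuron-rich spots in 4 of 4 areas. No call on a member between neuron-rich and progenitor-rich spots changed without that list.

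Of the neuronal factors, Tbr1 stood at 85.9 and 99.7 CPM and 123 and 178 CPM in progenitor-rich spots and at 233.8 and 138 CPM and 238 and 236 CPM in neuron-rich spots. It was higher in neuron-rich spots in 4 of 4 areas, with a log2 fold change of 0.91 (SE 0.14, adjusted p = 6.10e-05). Bcl11b went from 25.9 and 33.8 CPM and 51.6 and 62.7 CPM to 66.1 and 34.5 CPM and 73.6 and 106 CPM, with a log2 fold change of 0.66 (SE 0.19, adjusted p = 0.00915). In E14.5 replicate 2,3,4 the 2 Bcl11b values differed by less than 1 CPM. Neurod2 went from 1168 and 1095 CPM and 1380.0 and 1124 CPM to 2129 and 1404 CPM and 2316 and 998 CPM, so that it was higher in 3 of 4 areas and lower in E15.5 replicate 2,3,4. Its log2 fold change was 0.51 (SE 0.13, adjusted p = 0.00367), and with 2 equal parts in place of 3 it was 0.07 (adjusted p = 0.728). Neurod6 went from 879.5 and 853 CPM and 976 and 658 CPM to 1110.4 and 986 CPM and 1236 and 434 CPM, with a log2 difference of 0.16 (SE 0.12, adjusted p = 0.328). It was highest in the middle part in 3 of 4 areas, and without E15.5 replicate 2,3,4 its difference passed the test (0.31, adjusted p = 0.00667). That area had 12 spots in each part, against 27 to 37 in the others.

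The same order can be read from a single position per gene, the mean rank of the dorsal spots (0 for the most progenitor-rich and 1 for the most neuron-rich) weighted by the gene's level. The mean over 4 areas was 0.265 ± 0.110 (SD) for Eomes, 0.268 ± 0.0867 for Neurog2 and 0.362 ± 0.0717 for Emx1. It was 0.456 ± 0.0835 for Emx2 and 0.469 ± 0.0305 for Neurod1, followed by 0.525 ± 0.0364 for Neurod6, 0.553 ± 0.0302 for Neurod2, 0.559 ± 0.0372 for Bcl11b and 0.586 ± 0.0384 for Tbr1. Within single areas, Neurod1 lay before Neurod6, Neurod6 before Neurod2 and Bcl11b before Tbr1 in 4 of 4 areas. Neurog2 lay before Emx1 and Emx1 before Emx2 in 3 of 4 areas, with Emx1 at 0.344 and Neurog2 at 0.373 in E14.5 replicate 2,3,4 and Emx2 at 0.365 and Emx1 at 0.405 in E15.5 replicate 1. The other neighbours (Eomes and Neurog2, Emx2 and Neurod1, Neurod2 and Bcl11b) were in this order in 2 of 4 areas. The order of the means was the same without the choroid plexus list. The progenitor-rich spots of E14.5 replicate 2,3,4 were the shallowest, with a median of 3072 UMIs against 17598.5 to 89551 in the other areas, and the positions of Eomes and Neurog2 were nearest to the middle there (0.395 and 0.373). Of the 31 progenitor-rich spots of that area, 15 lay in its section A, with 28197 of their 651837 UMIs. The part of depth in these positions was not tested.

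**Figure D4:**
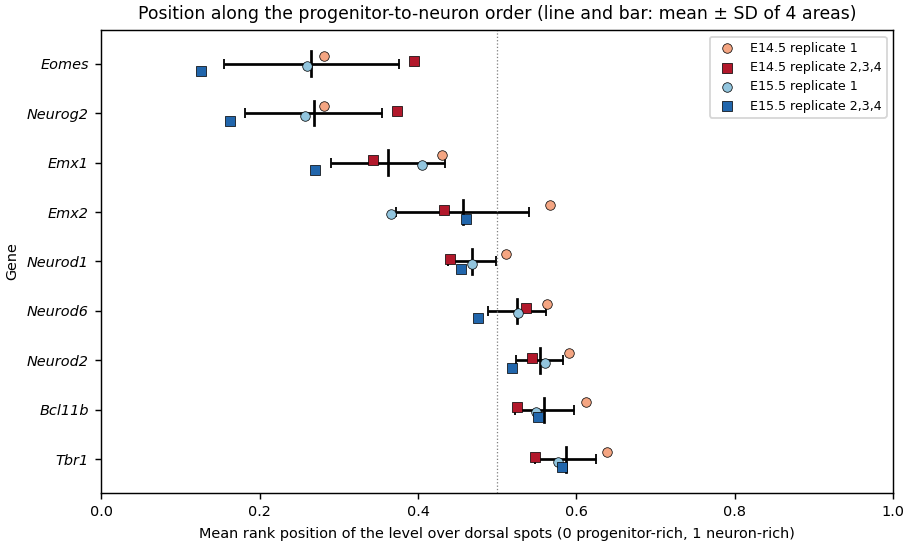
Position of each gene along the order of dorsal spots from progenitor-rich (0) to neuron-rich (1), with a point for each capture area and a line and bar for the mean ± SD of the 4 areas. Eomes, Neurog2 and Emx1 lie below 0.5 in all 4 areas, while Neurod2, Bcl11b and Tbr1 lie above 0.5 in all 4.

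Other genes of the lineage were taken from 3 lists of the same stages of differentiation. Of the progenitor list, 8 of 10 genes tested were lower in neuron-rich spots, among them Gli3 (log2 fold change -3.004, SE 0.13), a zinc finger factor of Hedgehog signalling, and Lhx2 (-2.54, SE 0.13), a cortical selector gene, while Wnt7b (0.58, SE 0.27) was higher. Of the list of intermediate progenitor genes, 9 of 10 were lower, among them Insm1 (-2.10, SE 0.14) and Btg2 (-2.11, SE 0.16), a gene of neurogenic divisions, and Rbfox3, which encodes the neuronal protein NeuN, was higher. Of the neuronal list, 10 of 22 were higher and 9 were lower. Nr4a2 (2.87, SE 0.21), known from the subplate, and Lmo3 (1.61, SE 0.18) had the smallest p of those higher, and Nfix (-1.31, SE 0.17) and Unc5d (-0.82, SE 0.12), known from the subventricular zone and upper layers, of those lower. The median log2 values were -2.43, -1.77 and 0.03 for the 3 lists, beside -0.01 over all genes tested. In neural against other spots, 6 of 11 progenitor genes, 7 of 12 intermediate genes and 20 of 26 neuronal genes were higher, and 3, 0 and 1 were lower, where 36% of all genes were called higher and 38.7% lower. Their median log2 values were 0.63, 0.55 and 1.19, beside -0.02 over all genes. Between dorsal and ventral spots, 19 of 25 neuronal genes were higher and 3 lower, with Zbtb18 (2.14, SE 0.11) and Sox5 (2.43, SE 0.13) first, while the progenitor list had 5 higher and 2 lower of 11 and the intermediate list 4 higher and 5 lower of 11. Their medians were 0.995 (neuronal), 0.39 (progenitor) and -0.19 (intermediate), beside 0.01 over all genes.

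Over the neural spots of an area, Neurod2, Neurod6 and Tbr1 varied together, and so did Neurog2, Eomes and Emx1, as a description over 194 to 254 spots of at least 1000 UMIs per area that share library and depth. Neurod2 and Neurod6 had a mean Pearson r of 0.869 (0.764 to 0.927 over the 4 areas) for log counts per 10000 UMIs, and their r with Tbr1 was 0.731 and 0.662. Neurog2 and Eomes had 0.738 (0.419 to 0.894), and Emx1 had 0.535 with Neurog2 and 0.533 with Eomes. Emx1 also had 0.464 with Neurod6 and 0.403 with Neurod2, and Neurod1 had 0.600 with Neurod2 and 0.371 with Neurog2. Bcl11b had -0.152 with Eomes and -0.151 with Neurog2, and 0.247 with Tbr1. The mean r of Emx2 with the other members was at most 0.105, that with Neurod1, which was 0.331 in E14.5 replicate 2,3,4 and 0.0209 to 0.0403 in the other areas. The matrix of correlations shows all 36 pairs.

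**Figure D5:**
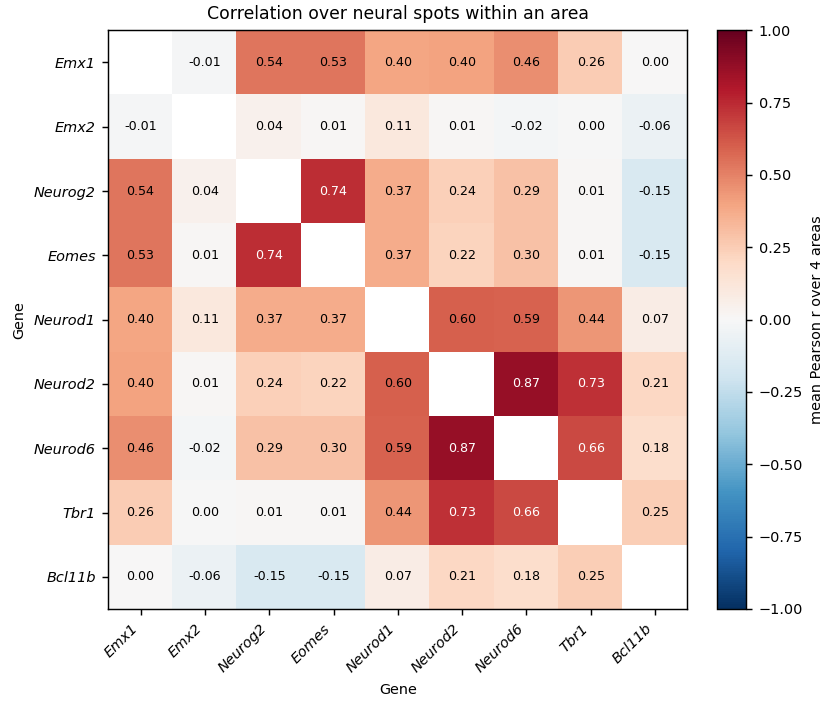
Mean Pearson r over the 4 capture areas between each pair of the 9 genes across neural spots, with the value in each cell and colour from -1 (blue) to 1 (red). Neurod2, Neurod6 and Tbr1 form one block and Neurog2, Eomes and Emx1 another, and the row of Emx2 is near 0.

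Among 11947 genes seen in at least 5% of spots of every area, the genes most like each member over all tissue spots of at least 1000 UMIs were found in the same way. For Neurod2 and Neurod6 they were each other (0.860), then Mpped1 (0.805 and 0.779) and Cntn2 (0.760 and 0.748), which encodes an axonal adhesion protein. For Tbr1 they were Neurod2 (0.752), Neurod6 (0.710) and Mpped1 (0.679). Neurog2 was most like Eomes (0.652), Pax6 (0.574), a factor of cortical and retinal progenitors, and Ckb (0.539), and Eomes was most like Neurog2, Emx1 (0.580) and Insm1 (0.534). For Emx1 they were Neurod6 (0.651), Neurod2 (0.607) and Ppp2r2b (0.593), and for Neurod1 they were Lhx2 (0.570), Insm1 (0.525) and Msi1 (0.513). Bcl11b followed no gene as closely, with Grin2b (0.378), Mpped1 (0.376) and Jph4 (0.372), and the values of Emx2 were lower still, at 0.198 for Gfy, 0.197 for Ugt2a1 and 0.180 for Apod. Gfy belongs to the olfactory epithelium list and Pax6 to the dorsal telencephalon list.

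Outside the brain, 3 tissue classes were compared with the rest of the non-neural spots after the levels of the members there had been seen. In retina spots, which number 56 to 198 per area, Neurog2 stood at 149 and 139.8 CPM at E14.5 and 209 and 149.7 CPM at E15.5, against 4.35 and 5.38 CPM and 8.44 and 6.96 CPM in muscle. Neurod1, which is known from photoreceptor and amacrine cells, stood there at 110.1 and 85.9 CPM and 152 and 132 CPM. Eomes, known from a subset of retinal ganglion cells, stood at 67.7 and 34.7 CPM and 67.6 and 22.0 CPM. Its level in spots of the pigment cell list was 198 and 19.6 CPM at E14.5 and 75.5 and 4.56 CPM at E15.5, above its retina level in both replicate 1 areas and below it in the others. These spots are among the other non-neural spots of the test, and their part in it was not tested. All 3 were higher in retina spots than in other non-neural spots, with log2 fold changes of 2.49 (SE 0.34, adjusted p = 0.00547), 1.74 (SE 0.32, adjusted p = 0.0147) and 1.29 (SE 0.31, adjusted p = 0.0338), where 13.8% of 13361 genes were called higher. The call on Eomes was lost without E14.5 replicate 1 (1.47, adjusted p = 0.104) and without E15.5 replicate 1 (1.02, adjusted p = 0.108). Of the other 6 members, 5 were lower in retina spots and Tbr1 did not pass, where 15.6% of all genes were called lower, and Neurod2 no longer passed without the choroid plexus list (-0.62, adjusted p = 0.213). Of these lower calls, that of Bcl11b alone held with each area left out in turn. Without E14.5 replicate 1 the adjusted p of Neurod2, Neurod6, Emx1 and Emx2 was 0.135 to 0.198, without E14.5 replicate 2,3,4 that of Neurod2 and Emx1 was 0.106 and 0.135, and without E15.5 replicate 2,3,4 that of Neurod2, Emx1 and Emx2 was 0.147, 0.106 and 0.121.

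In olfactory epithelium spots Neurod1, known from olfactory neuron precursors, stood at 153 and 118 CPM at E14.5 and 162 and 128 CPM at E15.5, within the range of its dorsal brain spots. Emx2 stood at 27.7 and 22.1 CPM and 36.0 and 37.6 CPM, above its level in the dorsal brain spots of the same area in 4 of 4 areas. Both were higher there than in other non-neural spots, by log2 fold changes of 1.92 (SE 0.25, adjusted p = 0.00138) and 1.88 (SE 0.17, adjusted p = 0.000335), where 41.5% of 13055 genes were called and 22.1% were called higher. These were the values of 39 to 100 spots per area. Neurog2 was lower there (-0.96, SE 0.25, adjusted p = 0.0251). Bcl11b was called higher too (0.40, SE 0.13), a call that was lost without E14.5 replicate 1 (0.32, adjusted p = 0.145), E15.5 replicate 1 (0.36, adjusted p = 0.203) or E15.5 replicate 2,3,4 (0.37, adjusted p = 0.166).

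In surface epidermis spots, chosen by keratins of the outer skin, 2 members were higher and 7 lower than in other non-neural spots, where 46% of 13333 genes were called, 22.2% higher and 23.8% lower. Bcl11b stood at 52.7 and 25.1 CPM and 32.9 and 29.96 CPM, with a log2 fold change of 1.04 (SE 0.13, adjusted p = 0.000201), and Emx2 at 42.8 and 13.2 CPM and 12.0 and 18.0 CPM, with 0.93 (SE 0.18, adjusted p = 0.00262). The E14.5 replicate 1 values rest on 16 and 13 UMIs. In muscle spots Bcl11b stood at 8.69 and 5.38 CPM and 10.0 and 8.30 CPM, below its epidermis level in each area. Without the choroid plexus list, Neurod2, Neurod6 and Tbr1 no longer passed.

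The stages were compared over all tissue spots and over neural spots, with E15.5 set against E14.5. Over all tissue spots none of 15609 genes passed by edgeR at an adjusted p under 0.1 (0%, with 930 at an unadjusted p under 0.05, and 28 by DESeq2), and so none of the 9. Their log2 differences lay between -0.97 (Eomes, SE 0.87) and 0.09 (Emx2, SE 0.34). Without E15.5 replicate 1, when E15.5 rests on the area with 9.94% neural spots, Neurod6 (-3.65, adjusted p = 0.0160), Eomes (-3.26, adjusted p = 0.0428), Neurod2 (-3.25, adjusted p = 0.0533), Emx1 (-2.92, adjusted p = 0.0554) and Neurog2 (-2.51, adjusted p = 0.0564) passed with a lower value at E15.5, among 78 genes called of 15990, 75 of them lower. That fit sets 1 area against 2 and takes its spread from the E14.5 areas alone. In such sums fewer cells of a type and less RNA per cell cannot be told apart.

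Within neural spots none of 12856 genes passed (275 at an unadjusted p under 0.05, and 8 by DESeq2), and the log2 differences of the members were between 0.02 (Neurod6, SE 0.62) and 0.55 (Emx2, SE 0.41). With the replicate number as a block 77 genes were called, 76 of them lower at E15.5, and no member was among them (adjusted p = 0.9999 for each by edgeR). The replicate number goes with the Space Ranger version and the number of sections, so each version holds 1 area per stage and gives no test within it. Dorsal spots made up 37.1% and 33.2% of the neural spots at E14.5 and 51.7% and 18.6% at E15.5, so the composition of the neural spots differed more within E15.5 than between the stages. In dorsal spots alone the values lay between -0.29 (Neurod6) and 0.58 (Bcl11b), none of which passed. In the test of whether the dorsal excess differed between the stages, none of the 9 passed, with 0 of 11358 genes called and 574 at an unadjusted p under 0.05. The largest of these differences were those of Bcl11b (0.73, SE 0.28, unadjusted p = 0.0257, adjusted p = 0.933) and Emx1 (-0.62, SE 0.32). For the layers, 0 of 9230 genes were called and 169 had an unadjusted p under 0.05. Eomes (1.39, SE 0.41, unadjusted p = 0.00378) and Neurog2 (1.08, SE 0.32, unadjusted p = 0.00365) ranked 10 and 9 by p in that test, each with an adjusted p of 0.9999. The 2 E15.5 areas differed in this. From progenitor-rich to neuron-rich spots, Eomes went from 458 to 66.8 CPM in replicate 1 and from 226 to 4.62 CPM in replicate 2,3,4. Neurog2 went from 680 to 107 CPM and from 278 to 18.5 CPM. The smaller fall was thus seen in E15.5 replicate 1 and not in the other E15.5 area. With 2 areas per stage, the SE of the members in neural spots was between 0.25 (Bcl11b) and 0.75 (Neurog2) on the log2 scale.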

How the data were processed

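Spatial transcriptomes (Visium for formalin-fixed, paraffin-embedded tissue) of 4 capture areas, 2 per stage, were analysed. What the authors deposited are UMI counts, not normalized, for each spot and gene. Per the file headers, Space Ranger 1.3.1 made the matrices of both areas numbered replicate 1, while version 2.0.0 made the rest, and the submitters' processing notes name Space Ranger, Cell Ranger and mm10. The probe set and annotation are not given in the sources used here. Deposited counts of the 6357 spots over tissue (19 barcodes off tissue and 12 tissue spots with no counts were left out) were used; 2161 of 3185 barcodes occur in 2 or more areas, since a barcode is an array position. No doublet caller was run, as a spot can hold several cells.

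The score of a marker list in a spot was log2 of its summed CPM plus 10, standardised over all tissue spots, and a spot was given the list with the highest score if that was over 1. The order of the dorsal spots used the log2 values before standardising. Of 121 list genes 117 are in the files. UMIs were summed per area and class and tested with edgeR 4.0.16 (R 4.3.3; TMM, filterByExpr, quasi-likelihood test, Benjamini-Hochberg over all genes tested, threshold 0.1), with the area as a term where both classes come from the same areas; the SE is the log2 fold change over the square root of F. DESeq2 1.42.0, other normalization, filters, thresholds, spots and classes, sections as samples, leaving out each area and a replicate term were alternatives. The scripts were tested on simulated data before use. Touching spots were joined to find the sections of a shared area, and 88 spots fell in none. Classes with under 10 spots in an area were left out there.

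Members, lists, tests and the rule for named genes (the members, the 3 genes most correlated with each, and the genes with the smallest p of each lineage list) were chosen with earlier results of these data known.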

Additional observations from a re-analysis of the deposited data

Results flagged for a closer look

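Among the 4 sections of E15.5, replicate 1 stood apart from the rest in 2 members over all tissue spots, by the gap to the nearest section as a share of the range (Dixon's ratio). Neurod6 stood at 213 CPM there and between 0.748 and 32.5 CPM in the other 3 sections, and Neurog2 at 97.9 CPM against 8.97 to 24.2 CPM. Replicate 1 had 21.4% neural spots, and the other sections had 17.9%, 0.380% and 9.04%, a difference whose part in these values was not tested. In all, 27 groups of 4 sections were examined, and chance alone sets about 5% of such groups apart.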

How the results depend on the processing

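Counts of called genes moved by over 1.5 times under some settings. Between the stages over all tissue spots, 28 genes were called by DESeq2 and 0 to 78 with an area left out (78 without E15.5 replicate 1), against 0. Between the stages in neural spots, 75 were called with no filter on low counts, 8 by DESeq2, 77 with a replicate block and 0 to 113 with an area left out (113 without E15.5 replicate 2,3,4), against 0. Between neuron-rich and progenitor-rich spots, 2718 were called by DESeq2, 2400 without the area term, 543 of 1693 tested at a list score over 1.5 and 2651 to 4560 with an area left out (fewest without E15.5 replicate 1), against 4198. Between dorsal and ventral spots, these counts were 1528, 811, 195 of 6981 and 1341 to 2522 (fewest without E15.5 replicate 1), against 2598. With an area left out, the counts were 1264 to 5532 for retina against 3925 (6171 without the choroid plexus list), 3330 to 5577 for olfactory epithelium against 5416 and 4038 to 6539 for epidermis against 6135. The list score over 1.5 leaves fewer spots and genes to test, and the cause of the other shifts was not tested.

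The log2 values that changed sign belong to differences that were not called, apart from Neurod1. In neural against other spots at a list score over 1.5, Neurod1 was at -0.064 and Emx2 at 0.13, and Emx2 was at 0.017 by DESeq2, at 0.040 without the choroid plexus list and between -0.23 and 0.18 with an area left out. Neurod6 was at -0.21 between 2 equal parts of the dorsal spots. Between the stages over all tissue spots, Emx2 was at -0.071 after thinning, and with an area left out the values ran from -2.51 to 0.13 for Neurog2, -3.26 to 0.039 for Eomes, -3.25 to 0.36 for Neurod2, -3.65 to 0.064 for Neurod6, -2.08 to 0.37 for Tbr1, -0.19 to 0.40 for Emx2 and -0.59 to 0.18 for Bcl11b. In neural spots they ran from -1.79 to 1.17 for Neurog2, -1.51 to 0.99 for Eomes, -0.68 to 0.80 for Neurod1, -1.15 to 0.87 for Neurod2, -1.63 to 0.78 for Neurod6, -0.072 to 0.94 for Tbr1 and -0.81 to 1.03 for Emx1. The other values there were -0.019 for Neurog2 and -0.071 for Eomes with sections as samples, -0.0019 for Neurod1 without the choroid plexus list, -0.15 for Neurod2, -0.013 for Neurod6 and -0.0077 for Bcl11b at a list score over 1.5, and -0.015 for Neurod2 and -0.29 for Neurod6 in dorsal spots only.

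With the replicate block the stage values in neural spots were -0.20 for Neurog2, -0.16 for Eomes, -0.087 for Neurod2 and -0.40 for Neurod6, and no member was called. The deviations of the replicate 1 areas from their stage means had r = 0.246 over 15609 genes, and with 2 pairs the numbers were not taken to pair the areas. The numbers also go with the Space Ranger version and with the number of sections per area, which are the same in both stages. Settings with the choroid plexus list left out, dorsal spots only, and the retina, olfactory and epidermis comparisons were chosen after seeing the data. The tests of stage by class were run under 1 setting only. Of 481 log2 values under settings that kept all areas, 447 kept their sign and their side of the threshold. With an area left out, 168 of 208 did so and 27 changed sign. Outside the brain these counts hold only Neurog2, Neurod1 and Eomes (retina), Neurod1 and Emx2 (olfactory epithelium) and Emx2 and Bcl11b (epidermis). The lost calls of other members there are not among them. Emx2 rests on 19 to 66 UMIs per area in dorsal spots, which limits its precision there.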
